A study of Mus musculus with 6 samples.

Results

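Protein phosphatase 2A (PP2A) is followed here through the mRNAs of 10 of its subunits in primary mouse osteosarcomas. The subunits were taken by name, as the rows of the count table whose Ensembl identifier carries the symbol *Ppp2ca*, *Ppp2cb*, *Ppp2r1a*, *Ppp2r1b*, *Ppp2r2a*, *Ppp2r5a*, *Ppp2r5b*, *Ppp2r5c*, *Ppp2r5d* or *Ppp2r5e*. All 10 were found among the 39179 counted genes, and all 10 passed the low-count filter that kept 16839 genes for testing. The RNA came from 6 tumors of mice of mixed C57BL/6 x 129/Sv x FVB background, and every mouse carried the *Nf2*Δ2/+ mutation, with 1 mutant and 1 normal allele of the tumor suppressor gene that encodes Merlin. *Cd44* was intact in No244, No316 and No368 (*Cd44*+/+) and deleted in No203, No279 and No364 (*Cd44*-/-). Each library holds the bulk tissue of 1 tumor. None of the mice is described as treated, and their ages are not given in the sources used here. Where values follow each other without tumor names, they are in this order. *Ppp2r5b* is a gene that the study itself listed from these same tumors, so its genotype difference below is a description and no independent evidence of its direction. The study's list took genes at an adjusted p under 0.05 from DESeq2, a threshold that *Ppp2r5b* did not pass in the fits below. By qRT-PCR, the study also reported differential expression of *Ppp2r5b* in cultured osteosarcoma cells, which are not part of these data.

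PP2A is one of the main serine/threonine phosphatases of the cell and removes phosphate groups that kinases have added. The active enzyme is a trimer of a catalytic C subunit, a scaffold A subunit and one of many regulatory B subunits, and the B subunit decides where the enzyme goes and which substrates it meets. The B56 family (*Ppp2r5a* to *Ppp2r5e*) guides PP2A to short peptide motifs in its partners, among them proteins of the kinetochore, of the β-catenin destruction complex and of growth factor signaling. PP2A is widely described as a tumor suppressor, and its loss of function has been tied to transformation and to resistance of tumor cells to death.

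The promoters are shown first for the subunits whose genotypes did not overlap, because the study considers short promoter elements through which the intracellular domain of CD44 could act on transcription. Of the 10 subunits, 7 had a window in the RefSeq promoter table (GRCm38.p6), which covers 250 bases before and 50 bases after each start. Capitals mark matches on either strand to CCTGCG, known as the CD44ICD response element (CIRE), and to the GC box GGGCGG. Each stretch printed directly below ends before the first base that GENCODE M21 annotates as an exon of the gene, and that of *Ppp2r1b* lies within the gene as GENCODE draws it.
*Ppp2ca*, chr11:52098574-52098680, plus strand: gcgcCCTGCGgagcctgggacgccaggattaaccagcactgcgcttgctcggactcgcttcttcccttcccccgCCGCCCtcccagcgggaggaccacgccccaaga
*Ppp2r1b*, chr9:50856674-50856923, plus strand: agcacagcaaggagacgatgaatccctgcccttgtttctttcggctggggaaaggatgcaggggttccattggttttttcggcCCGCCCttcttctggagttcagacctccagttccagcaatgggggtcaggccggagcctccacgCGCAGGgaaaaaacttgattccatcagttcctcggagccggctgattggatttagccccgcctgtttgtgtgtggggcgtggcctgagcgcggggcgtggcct
*Ppp2r5b*, chr19:6235873-6236090, minus strand: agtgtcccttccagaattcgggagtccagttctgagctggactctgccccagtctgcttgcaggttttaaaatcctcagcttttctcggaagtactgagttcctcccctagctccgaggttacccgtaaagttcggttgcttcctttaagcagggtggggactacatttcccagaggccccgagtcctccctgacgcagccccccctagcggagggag

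Nearer to its start, *Ppp2ca* held a cyclic AMP response element (TGACGTCA) in the stretch gacgctggcgTGACGTCAccacgccggg (chr11:52098788-52098815, plus strand), where the capitals mark the element. That stretch lies inside *Ppp2ca* as GENCODE draws it, with the first base of the gene at 52098681. CCTGCG was in the windows of 3 subunits (*Ppp2ca*, *Ppp2r1b* and *Ppp2r5a*) and in 17.3% of all 32851 windows of this length. *Ppp2r5b* held no CCTGCG. The other element the study names, TGAGTCA or TGACTCA (the TRE), was in none of the 7 subunits and in 5.2% of all windows. TGACGTCA was in 1.79% and GGGCGG in 35.7% of all windows, and GGGCGG was in at least 1 window of each of the 7 subunits. These matches are a description of letters in short windows, and no binding was measured.

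The tumors differed in tissue content and in depth. Total counts per tumor lay between 18076388 and 26954142, and the genes of the mitochondrial chromosome took 55.2% of them in No244 and between 5.94% and 12.5% in the other tumors. The counts of No316 and No368 differed by less than the sampling noise for 87.2% of the 16671 genes compared, the 10 subunits included, against 15.7% to 24.1% of genes in every other pair of tumors. These libraries were therefore averaged and counted as 1 sample in each mean ± SD (n = 2 for *Cd44*+/+, n = 3 for *Cd44*-/-), while the fit across all genes took the 6 libraries as deposited. All 9 osteoblast markers examined (*Runx2*, *Sp7*, *Col1a1* and others) were counted in every tumor. *Sp7*, *Alpl*, *Ibsp* and *Bglap* were nevertheless low in 2 *Cd44*-/- tumors, with *Sp7* at 3.96 CPM in No279 and 0.314 CPM in No364 against 192.0 to 333.2 CPM elsewhere, and *Bglap* and *Spp1* were lower in every *Cd44*-/- tumor. The summed level of all 9, most of it from *Col1a1*, *Col1a2* and *Sparc* in the other tumors, was 4492 CPM (read counts scaled to a common library size) in No364 and between 28450 and 95360 CPM in the other tumors. The 10 hepatocyte markers summed to 123400 CPM in No364 and to between 45.3 and 157.9 CPM elsewhere, and the 5 skeletal muscle markers to 17170 CPM in No244 and to between 13.5 and 547.1 CPM elsewhere. The 4 epithelial markers summed to 1967 CPM in No364, 36.4 in No279 and 5.27 in No203, and to between 2.61 and 3.11 CPM in *Cd44*+/+ tumors. *Xist* was below 1 CPM (0.726 and 0.994) in No279 and No364, which carried counts of all 4 Y-linked genes examined, and between 858.9 and 1241 CPM in the other tumors. No203 is thus the single *Cd44*-/- tumor on the same side as the *Cd44*+/+ tumors, which leaves too few samples for a comparison within that side. *Cd44* itself was at 137.3, 243.6 and 240.3 in the *Cd44*+/+ tumors and at 19.2, 15.7 and 61.8 CPM in the *Cd44*-/- tumors. It was lower in each tumor of the mice labelled as lacking it, although not at 0. The part of tissue content and of sex in the results below was not tested, beyond the values given beside them.

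No subunit passed the test between genotypes. The test was edgeR's quasi-likelihood F test, with Benjamini-Hochberg adjustment over the 16839 genes. At an adjusted p-value under 0.05 it called 0 of the 10 subunits and 0% of all genes. Differences below are log2 fold changes, *Cd44*-/- minus *Cd44*+/+, with their standard errors (SE). At an unadjusted p under 0.05 there was 1 subunit, *Ppp2r5b*, beside 10.7% of all genes tested, or 4.31% counting only genes lower in *Cd44*-/- tumors. With No316 and No368 summed, edgeR had 0 subunits and 4.27% of genes at an unadjusted p under 0.05, and the share of genes was 4.30% without No316, 4.43% without No368 and 17.6% without No203. With DESeq2 defaults, 1.76% of genes and 0 of the 10 subunits were called. The genotypes did not overlap for 3 subunits, beside 19.1% of all genes tested. *Ppp2ca* and *Ppp2r1b* were higher in every *Cd44*-/- tumor (9.49% of all genes), and *Ppp2r5b* was lower in every *Cd44*-/- tumor (9.57% of all genes). Scaled by library size alone, none of the 3 was apart. *Ppp2ca* and *Ppp2r1b* overlapped when mitochondrial genes were left out of the library size, and *Ppp2r1b* overlapped when *Hprt* and *Tbp* set the scale. With No316 and No368 summed to 1 sample, the genotypes did not overlap for 4 subunits, *Ppp2r5d* being the addition, beside 20.6% of all genes. The log2 fold changes (*Cd44*-/- minus *Cd44*+/+) were above 0 for 6 subunits and below 0 for 4, with a median of 0.18 against 0.11 over all genes tested.

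**Figure D1:**
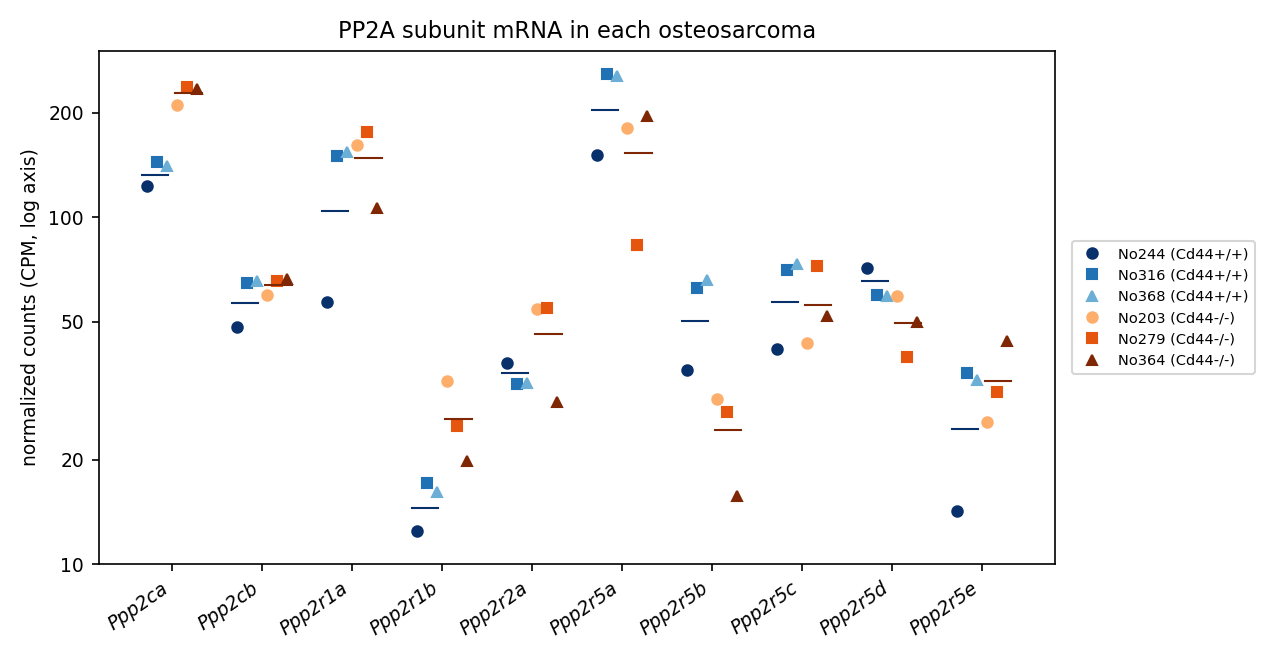
Normalized counts (CPM, log axis) of the 10 PP2A subunits in each tumor, *Cd44*+/+ in blue and *Cd44*-/- in orange, with a line at each genotype mean (No316 and No368 averaged first). *Ppp2ca* and *Ppp2r1b* lie higher and *Ppp2r5b* lies lower in the 3 *Cd44*-/- tumors, and the genotypes overlap for the other subunits.

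*Ppp2ca* (ENSMUSG00000020349, chr11:52098681-52127778 of GRCm38, plus strand) and *Ppp2cb* (ENSMUSG00000009630, chr8:33599625-33619441, plus strand) encode the α and β forms of the catalytic C subunit, which are nearly the same protein. *Ppp2ca* was at 122.8, 144.1 and 140.7 in the *Cd44*+/+ tumors and at 210.8, 237.5 and 233.3 CPM in the *Cd44*-/- tumors. The *Cd44*-/- tumors lay close together, and all were above the highest *Cd44*+/+ tumor. *Cd44*+/+ tumors averaged 132.6 ± 13.9 CPM (SD, n = 2) and *Cd44*-/- tumors 227.2 ± 14.4 CPM (SD, n = 3), further apart than the spread within either genotype. The fitted difference was 0.74 on the log2 scale (SE 0.35, 95% interval -0.09 to 1.57, edgeR adjusted p = 0.480). It stayed between 0.67 and 0.78 when each tumor was left out in turn.

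*Ppp2cb* was nearly even over the tumors. It was at 48.2, 64.7 and 65.3 in the *Cd44*+/+ tumors and at 59.6, 65.4 and 66.5 CPM in the *Cd44*-/- tumors. The highest tumor was 1.38 times the lowest, the smallest such ratio among the 10 subunits. In the fit, the genotypes differed by 0.10 on the log2 scale (SE 0.30, edgeR adjusted p = 0.909), and the 95% interval from -0.61 to 0.81 on the log2 scale still holds changes by a factor of 0.658 to 1.76. With No316 and No368 summed, that interval was wider, from -0.91 to 1.23.

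The ratio of the catalytic paralogs does not depend on how libraries are scaled to each other. There were 2.55, 2.23 and 2.155 reads of *Ppp2ca* per read of *Ppp2cb* in the *Cd44*+/+ tumors and 3.54, 3.63 and 3.51 in the *Cd44*-/- tumors. The genotypes were apart, at 2.37 ± 0.251 (SD, n = 2) and 3.56 ± 0.0637 (SD, n = 3). An exact two-sided permutation test over the 5 samples gave p = 0.2, the smallest p that 2 samples against 3 allow. No203, the tumor that shares the *Xist* level of the *Cd44*+/+ tumors, gave 3.54, and No364, the tumor with hepatocyte transcripts, gave 3.51. The part of sex and of tissue content in this ratio was not tested. Per exon length, *Ppp2ca* made up 33.3%, 30.4% and 29.7% of the catalytic signal in the *Cd44*+/+ tumors and 41.0%, 41.6% and 40.8% in the *Cd44*-/- tumors. The difference of the means was 9.41 percentage points (exact permutation p = 0.2, adjusted p = 0.467 over the 7 shares tested). The level of *Ppp2ca* against *Ppp2cb* rests on a long exon length of 7490 bases, of which 3093 also belong to other annotated genes. The gene with most of this overlap, the antisense RNA *9430098F02Rik*, was at 5.47 to 7.92 CPM over the tumors, and the genotypes overlapped for it. The strand setting of the counting is not given in the sources used here. The part of this overlap in the counts of *Ppp2ca* was not tested.

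*Ppp2r1a* (ENSMUSG00000007564, chr17:20945311-20965916, plus strand) and *Ppp2r1b* (ENSMUSG00000032058, chr9:50845301-50894229, plus strand) encode the scaffold A subunits that hold C and B together. *Ppp2r1a* was at 56.9, 149.5 and 153.5 in the *Cd44*+/+ tumors and at 161.1, 176.2 and 106.1 CPM in the *Cd44*-/- tumors. The lowest was No244, the tumor with muscle and mitochondrial transcripts, and No364 was the next lowest, so the genotypes overlapped. The difference between genotypes came to 0.30 on the log2 scale (SE 0.49, edgeR adjusted p = 0.830), and without No244 it was -0.04. *Ppp2r1b*, the less abundant scaffold, was at 12.4, 17.1 and 16.1 in the *Cd44*+/+ tumors and at 33.8, 25.02 and 19.8 CPM in the *Cd44*-/- tumors. The lowest *Cd44*-/- tumor still exceeded the highest *Cd44*+/+ tumor, with No364 only a little above No316. On average it was at 14.5 ± 2.96 (SD, n = 2) and 26.2 ± 7.05 CPM (SD, n = 3). The fit gave a difference of 0.78 on the log2 scale (SE 0.36, 95% interval -0.08 to 1.65, edgeR adjusted p = 0.477), and it ran from 0.53 to 0.95 over the fits that leave out one tumor. Of its exon bases, 1429 are shared with *Sik2* on the other strand. *Sik2* was at 3.86 to 4.55 CPM in *Cd44*+/+ and 6.33 to 11.03 CPM in *Cd44*-/- tumors, which were apart in the same direction, and the strand setting of the counting is not given in the sources used here.

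Per exon length, *Ppp2r1a* held 89.6%, 94.3% and 94.7% of the scaffold signal in *Cd44*+/+ and 90.0%, 93.0% and 91.0% in *Cd44*-/- tumors. The shares overlapped, with means of 92.1% ± 3.45 (SD, n = 2) and 91.3% ± 1.53 (SD, n = 3) and an exact permutation p of 0.8. *Ppp2r1a* was thus the main scaffold mRNA in each of the 6 tumors.

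*Ppp2r2a* (ENSMUSG00000022052, chr14:67014056-67072444, minus strand) encodes B55α, a regulatory subunit that acts on cell cycle proteins at the exit from mitosis. It was at 37.9, 32.95 and 33.2 in the *Cd44*+/+ tumors and at 54.4, 54.7 and 29.4 CPM in the *Cd44*-/- tumors. No203 and No279 lay above all *Cd44*+/+ tumors, and No364 lay below all of them. The fitted difference was 0.41 on the log2 scale (SE 0.35, edgeR adjusted p = 0.659) and 0.66 without No364.

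Of the 10 subunits, the largest fitted difference was that of *Ppp2r5b* (ENSMUSG00000024777, chr19:6227765-6235872, minus strand). It encodes B56β, a regulatory subunit that has been linked to the dephosphorylation of the survival kinase Akt. The gene was counted 433, 1799 and 1572 times in the *Cd44*+/+ tumors and 756, 834 and 300 times in the *Cd44*-/- tumors. This is 36.4, 62.5 and 66.0 CPM in *Cd44*+/+ and 30.0, 27.5 and 15.7 CPM in *Cd44*-/- tumors. The gap between the genotypes lay between No244 and No203 and was small beside the range within *Cd44*+/+ tumors. No364, with its hepatocyte transcripts, was the lowest tumor, and No203 and No279 lay close together without them.

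The means of *Ppp2r5b* were 50.3 ± 19.7 (SD, n = 2) and 24.4 ± 7.64 CPM (SD, n = 3). In the fit of 6 libraries, the genotypes differed by -1.17 on the log2 scale (SE 0.40, 95% interval -2.14 to -0.21, edgeR adjusted p = 0.452), which is 2.25-fold lower in *Cd44*-/- tumors, and by unadjusted p it was number 827 of the 16839 genes. With No316 and No368 summed to 1 sample, edgeR gave -1.06 (SE 0.52, 95% interval -2.33 to 0.21, adjusted p = 0.818), or 2.08-fold lower, and the interval then held 0. The log2 fold change was -0.93 without No364 and -1.40 without No244, and it was -0.87 with the hepatocyte score as a covariate. Without No364 and with the hepatocyte score, *Ppp2r5b* did not have an unadjusted p under 0.05 in edgeR. The subunits under it were then *Ppp2r1b* and *Ppp2r2a* without No364, beside 8.82% of all genes. With the hepatocyte score it was *Ppp2r1b*, beside 8.89% of all genes. *Gpha2*, which encodes a glycoprotein hormone subunit and shares 4 exon bases with *Ppp2r5b* on the opposite strand, had 202 and 179 counts in No316 and No368 and between 1 and 12 counts in the other tumors. The part of this neighbor in the counts of *Ppp2r5b* was not tested.

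With the scaling used for these CPM values, the other B56 subunits did not separate the genotypes. *Ppp2r5a* (ENSMUSG00000026626, chr1:191351975-191403272, minus strand), which encodes B56α, was at 151.2, 258.9 and 254.2 in the *Cd44*+/+ tumors and at 180.2, 83.2 and 195.9 CPM in the *Cd44*-/- tumors. No279 was the lowest tumor by far, and No203 and No364 lay inside the range of the *Cd44*+/+ tumors. The difference between genotypes came to -0.53 on the log2 scale (SE 0.49, edgeR adjusted p = 0.682) and to -0.24 without No279. The genotypes of *Ppp2r5a* were apart, lower in *Cd44*-/-, with *Hprt* and *Tbp* as the scale (10.87% of all genes) and without No244 (19.34%).

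*Ppp2r5d* (ENSMUSG00000059409, chr17:46682991-46705111, minus strand) encodes B56δ, one of the subunits that can enter the nucleus. It was at 71.3, 59.8 and 59.2 in the *Cd44*+/+ tumors and at 59.4, 39.5 and 49.98 CPM in the *Cd44*-/- tumors. No203 fell between No368 and No316, and the other *Cd44*-/- tumors were below all *Cd44*+/+ tumors. The fit gave a difference of -0.35 on the log2 scale (SE 0.31, edgeR adjusted p = 0.668), with -0.21 without No279, and 121 of its exon bases are shared with *Mea1* on the other strand. The genotypes of *Ppp2r5d* were apart, lower in *Cd44*-/-, with DESeq2 size factors (10.07% of all genes) and without mitochondrial genes in the library size (13.23%). They were also apart with No316 and No368 summed (10.23%), without No368 (10.44%) and without No203 (18.72%).

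*Ppp2r5c* (ENSMUSG00000017843, chr12:110447120-110583062, plus strand), which encodes B56γ, a subunit tied to the dephosphorylation of p53, had nearly the same mean in both genotypes. They were 56.8 ± 21.3 (SD, n = 2) and 55.8 ± 14.9 CPM (SD, n = 3), with single values from 41.8 CPM in No244 to 73.1 CPM in No368. The log2 fold change was -0.15 with a 95% interval from -1.04 to 0.75 (edgeR), so a change by a factor of 0.486 to 1.68 would be within it. With No316 and No368 summed, that interval was wider, from -1.27 to 1.19. *Ppp2r5e* (ENSMUSG00000021051, chr12:75450881-75596245, minus strand), which encodes B56ε, was at 14.3, 35.6 and 34.0 in the *Cd44*+/+ tumors and at 25.6, 31.4 and 43.9 CPM in the *Cd44*-/- tumors. The lowest tumor was No244 and the highest No364, and the log2 fold change of 0.26 (SE 0.45, adjusted p = 0.838 from edgeR) became -0.06 without No244.

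**Figure D2:**
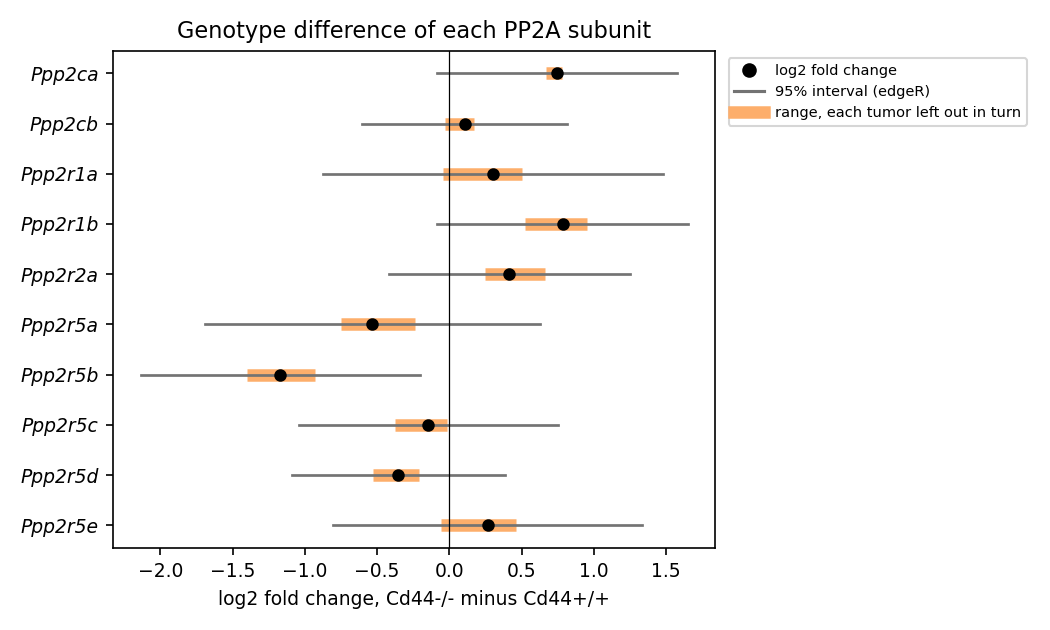
Log2 fold change (*Cd44*-/- minus *Cd44*+/+) of each PP2A subunit from edgeR, as points with their 95% intervals (grey) and the range over the 6 fits that leave out one tumor (orange). The interval of *Ppp2r5b*, from -2.14 to -0.21, is the only one of the 10 without 0 in this fit of 6 libraries (adjusted p = 0.452), and with No316 and No368 summed it runs from -2.33 to 0.21.

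Within the B56 family of 5, the shares of *Ppp2r5b* and *Ppp2r5e* did not overlap between genotypes. No such shares were computed for other genes, and in CPM 19.1% of all genes did not overlap. Per exon length, *Ppp2r5b* held 19.5%, 23.7% and 24.9% of the B56 signal in the *Cd44*+/+ tumors, against 16.1%, 19.0% and 8.59% in the *Cd44*-/- tumors. The genotypes did not overlap, although No279 came within 1 percentage point of No244. Its mean share was 21.9% ± 3.36 (SD, n = 2) against 14.6% ± 5.37 (SD, n = 3), with an exact permutation p of 0.2 (adjusted p = 0.467 over the 7 shares). The difference of -7.36 percentage points was -4.37 without No364, -4.34 with reads not divided by length and -4.58 with the principal transcript length. *Ppp2r5e* held 4.84%, 8.51% and 8.10% in *Cd44*+/+ and 8.70%, 13.6% and 15.1% in *Cd44*-/- tumors. These shares too did not overlap (exact permutation p = 0.2, adjusted p = 0.467), and No203 was only just above No316. For both subunits, 0.2 is the smallest p that this permutation test allows. In CPM the genotypes of *Ppp2r5e* overlapped, and its share also depends on the levels of the other B56 subunits. The difference of 5.92 points was 2.81 with the principal transcript length.

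The shares of the other B56 subunits overlapped between genotypes. *Ppp2r5c* held 20.3% in No279 and between 9.13% and 11.6% in every other tumor, and *Ppp2r5a* held 20.1% in No279 and between 28.5% and 37.6% in every other tumor. By share, No279 therefore had a B56 make-up of its own, with a larger part of *Ppp2r5c* and a smaller part of *Ppp2r5a* than the remaining 5 tumors. In CPM, *Ppp2r5c* was not highest in No279 (72.3, against 73.1 in No368), whereas *Ppp2r5a* was lowest there at 83.2. *Ppp2r5d* held 38.0% in No244 and between 22.1% and 31.7% elsewhere. Summed over the family, B56 reads were at 315.0, 487.4 and 486.6 in the *Cd44*+/+ tumors and at 338.4, 254.0 and 357.4 CPM in the *Cd44*-/- tumors, which overlapped (exact permutation p = 0.6). Summed catalytic reads were at 171.1 to 208.7 CPM in *Cd44*+/+ and 270.4 to 302.9 CPM in *Cd44*-/- tumors. With this scaling they did not overlap (exact permutation p = 0.2, the smallest p the 5 samples allow). *Ppp2ca*, which holds most of these reads, overlapped by library size alone and without mitochondrial genes in the library size. The separation of the sum therefore depends on the scaling.

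**Figure D3:**
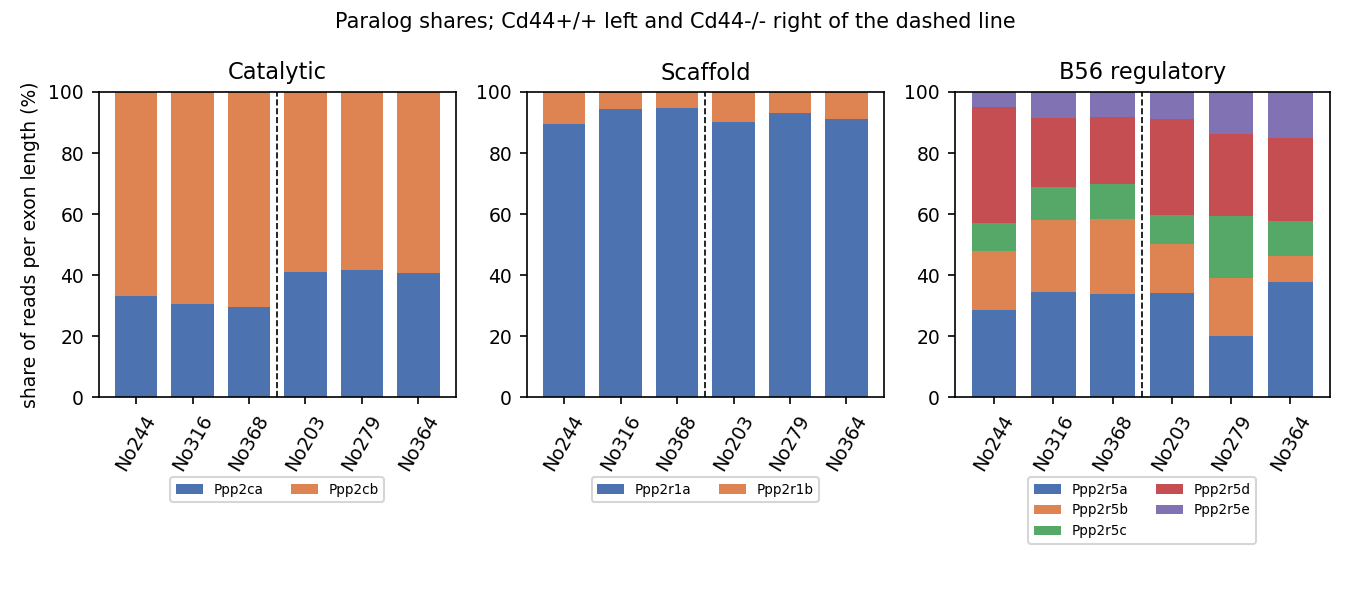
Share of each paralog in the reads per exon length (%) of the catalytic, scaffold and B56 subunits in each tumor, as stacked bars that add to 100%. *Ppp2ca* makes up 29.7–33.3% of the catalytic signal left of the dashed line (*Cd44*+/+) and 40.8–41.6% right of it (*Cd44*-/-), and *Ppp2r5b* makes up 19.5–24.9% and 8.59–19.0% of the B56 signal.

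Compared per summed exon length, both catalytic mRNAs and the scaffold *Ppp2r1a* were the most abundant of the 10. The other scaffold, *Ppp2r1b*, was the least abundant. *Ppp2cb* had a mean of 41.5 CPM per kb over the 5 samples, *Ppp2r1a* 38.2 and *Ppp2ca* 25.3. They were followed by *Ppp2r5a* at 18.05, *Ppp2r5d* at 16.45, *Ppp2r5b* at 10.3, *Ppp2r2a* at 7.78, *Ppp2r5c* at 6.79, *Ppp2r5e* at 5.61 and *Ppp2r1b* at 3.34 CPM per kb. No neighbors in this order kept it in all 6 tumors. *Ppp2cb* was above *Ppp2r1a* in 3 tumors, *Ppp2r5b* above *Ppp2r2a* in 3, and *Ppp2r2a* above *Ppp2r5c* in 3. The order kept best was that of *Ppp2r1a* over *Ppp2ca*, *Ppp2r5c* over *Ppp2r5e* and *Ppp2r5e* over *Ppp2r1b*, each in 5 of 6 tumors. With the length of the principal transcript in place of the summed exons, *Ppp2r5c* made up 19.8–40.7% of the B56 signal in place of 9.13–20.3%. The principal transcript has 3088 bases against 9607 in the summed exons of *Ppp2r5a*, and 1847 against 8286 for *Ppp2r5c*. It has 7102 against 7490 bases for *Ppp2ca*, 2410 against 3411 for *Ppp2r1a*, and 1469 by either measure for *Ppp2cb*. The order among the B56 subunits therefore depends on the length used. So does the place of the catalytic mRNAs and *Ppp2r1a* above them. As for the spread between tumors, the highest tumor was 1.38 times (*Ppp2cb*) to 4.204 times (*Ppp2r5b*) the lowest, with a median of 2.325, against a median of 3.12 over the 7123 tested genes with a mean between those of the lowest and highest subunit.

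The genes with the pattern most like that of *Ppp2r5b* were found by the root mean square difference of log2 CPM, centred over the 6 libraries, among all genes tested. They were *Sfn*, which encodes the 14-3-3σ protein (difference 0.08), *2510009E07Rik* (0.10), *Hpcal1*, which encodes a calcium sensor of the hippocalcin family (0.11), *Ddit4*, which encodes an inhibitor of mTORC1 signaling (0.12), and *Atxn7l2* (0.13). *Ddit4* was at 155.7, 241.9 and 234.9 in the *Cd44*+/+ tumors and at 133.2, 122.0 and 69.0 CPM in the *Cd44*-/- tumors. *Sfn* was at 4.87, 7.72 and 7.89 CPM and at 3.37, 3.14 and 1.83 CPM in the same order. For all 5 genes the *Cd44*-/- tumors were below the *Cd44*+/+ tumors, as the choice by likeness brings with it. Of the other 9 subunits, the nearest was *Ppp2r5c* at a difference of 0.63, number 2286 in the order of likeness among the 16839 genes tested. *Ppp2r5d* (0.64, number 2345) and *Ppp2r5a* (0.66, number 2682) came next, and *Ppp2ca* was the furthest (1.03, number 8935).

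Around the 10 subunits, 52 genes in 6 lists stand for the rest of the PP2A system, and 51 of them passed the low-count filter. None had an adjusted p-value under 0.05 with edgeR, and 2, *Strn3* and *Anp32a*, had an unadjusted p under 0.05, beside 10.7% of all genes. With No316 and No368 summed, that number was 0 with edgeR. Of the 51 genes, 35 had a log2 fold change above 0 and 16 below, with a median of 0.26 against 0.11 over all genes tested. The genotypes did not overlap for 9 of them, beside 19.1% of all genes, with 6 higher and 3 lower in *Cd44*-/- tumors. In bulk RNA, fewer cells of a type and less RNA per cell cannot be told apart, and this holds for the subunits as well.

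Among the other B subunits, 8 of 9 were tested, with 4 log2 fold changes on either side of 0 and a median of 0.21. *Strn3*, which encodes a striatin, the B subunit of the PP2A complexes called STRIPAK, had the lowest value of the list. It was at 118.0, 114.9 and 115.7 in the *Cd44*+/+ tumors and at 68.0, 57.0 and 42.4 CPM in the *Cd44*-/- tumors. The *Cd44*+/+ tumors were almost equal, No244 included, and all *Cd44*-/- tumors lay far below them. The genotype averages were 116.7 ± 1.91 (SD, n = 2) against 55.8 ± 12.9 CPM (SD, n = 3), and the fitted difference was -1.06 on the log2 scale (SE 0.33, edgeR adjusted p = 0.452). *Ppp2r2d*, which encodes B55δ, had the highest value of the list at 0.49 and was also apart, with 27.6 to 37.9 CPM in *Cd44*+/+ and 39.4 to 53.7 CPM in *Cd44*-/- tumors.

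Of the 8 genes that inhibit PP2A, none passed the adjusted threshold. With TMM scaling all 8 had a log2 fold change above 0, as had 9277 of all 16839 genes tested, and the median was 0.35. *Bod1* was at 0.00, and its sign changed with the scaling. Library size without mitochondrial genes moved the median of all genes to -0.16, so the count of 8 holds for the TMM scaling. *Anp32a*, which encodes a nuclear protein that inhibits the catalytic subunit, was at 49.7, 54.9 and 56.3 in the *Cd44*+/+ tumors and at 122.8, 65.2 and 170.8 CPM in the *Cd44*-/- tumors. The *Cd44*+/+ tumors lay close together and below all *Cd44*-/- tumors, among which No364 was the highest. In the fit, the genotypes differed by 1.16 on the log2 scale (SE 0.43, edgeR adjusted p = 0.452), and by 0.75 with the hepatocyte score as a covariate. *Set*, *Cip2a*, *Ensa*, *Arpp19* and *Mastl*, the other inhibitors and the kinase that switches on *Ensa* and *Arpp19*, overlapped between genotypes, whereas *Fam122a*, an inhibitor of PP2A with B55, was apart at 2.02 to 3.19 CPM in *Cd44*+/+ and 4.44 to 7.69 CPM in *Cd44*-/- tumors.

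The genes that build and activate the enzyme numbered 5, of which 4 had a log2 fold change above 0, with a median of 0.63. *Igbp1*, which encodes the α4 chaperone of free catalytic subunits, had the highest value at 0.77, and No364 was its highest tumor at 99.9 CPM. Without No364 the value was 0.32, and with the hepatocyte score as a covariate 0.29. *Ptpa*, which encodes an activator of PP2A, had the lowest at -0.40. It was at 106.9 to 110.7 CPM in *Cd44*+/+ and at 89.1, 100.6 and 57.7 CPM in No203, No279 and No364, so that the genotypes were apart with No279 close to the *Cd44*+/+ tumors, and the value was -0.19 without No364. The 7 partners in STRIPAK had a median of 0.27. *Stk25*, a kinase of this complex, was lowest at -0.95 (72.95 to 176.7 CPM in *Cd44*-/- against 174.8 to 292.0 in *Cd44*+/+ tumors), and *Stk26*, a related kinase, was highest at 2.21 with No279 at 4.985 CPM and every other tumor between 0.252 and 1.10 CPM. *Stk26* was at 0.71 without No279 and *Stk25* at -1.47 without No203. The catalytic subunits of related phosphatases ran from 0.00 for *Ppp1cb*, whose sign changed with the settings, to 0.46 for *Ppp4c*, with a median of 0.19 over 6 genes.

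The B56 partners and substrates had a median of 0.09 over 17 genes, close to that of all genes tested. They ran from -1.38 for *Ier3*, an immediate early gene whose product binds B56, to 1.08 for *Ccng2*, which encodes a cyclin that binds B56 subunits. *Ier3* was at 25.04, 84.6 and 84.4 in the *Cd44*+/+ tumors and at 6.22, 39.0 and 29.6 CPM in the *Cd44*-/- tumors, so the genotypes overlapped through No244. *Ccng2* was at 18.1 to 20.6 CPM in *Cd44*+/+ tumors and at 14.0, 63.5 and 47.4 CPM in No203, No279 and No364, where No203 was below all *Cd44*+/+ tumors, and its value was 0.64 without No279. Of the 17 genes, *Foxo3* alone was apart between genotypes, beside 19.1% of all genes, or 9.57% counting only those lower in *Cd44*-/- tumors. It was at 82.2 to 123.3 CPM in *Cd44*+/+ and 58.0 to 78.7 CPM in *Cd44*-/- tumors, with a log2 fold change of -0.46 (edgeR adjusted p = 0.616).

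**Figure D4:**
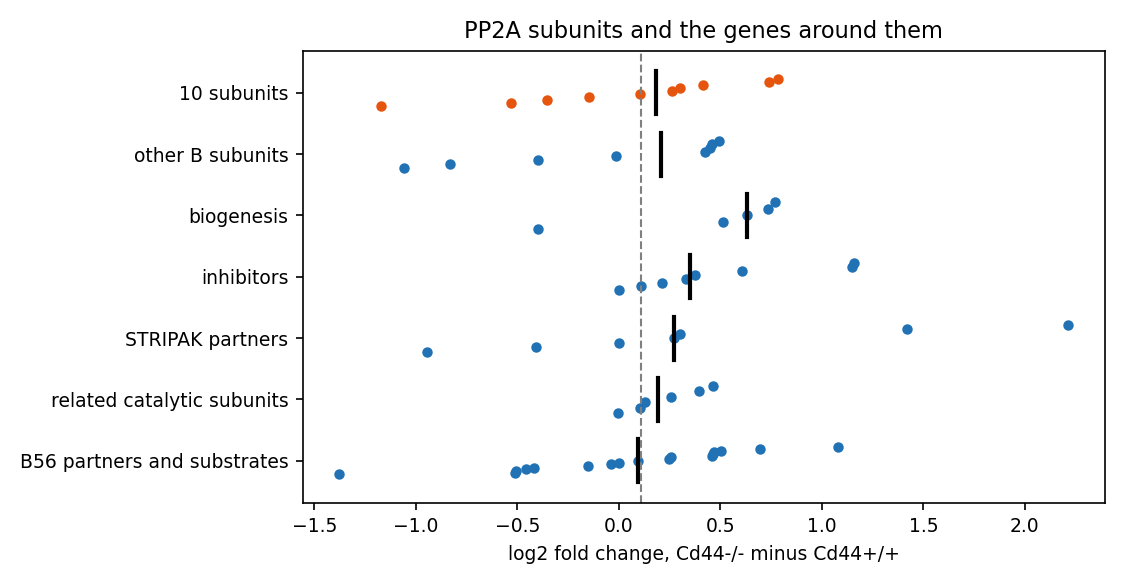
Log2 fold change (*Cd44*-/- minus *Cd44*+/+, edgeR) of the 10 PP2A subunits (orange) and of the 51 tested genes of 6 lists around PP2A (blue), 1 point per gene, with a bar at each median and a dashed line at the median of all genes tested. The medians run from 0.09 for the B56 partners and substrates to 0.63 for the 5 biogenesis genes, and no point passed the adjusted threshold.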

How the data were processed

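RNA of 6 osteosarcomas was sequenced by the authors as stranded mRNA libraries from one end. By the study's methods and the submitters' processing notes, reads were aligned to GRCm38 with HISAT2 2.0.2 and counted with featureCounts (Subread 2.0.0). The authors deposited raw counts per Ensembl gene, 1 column per tumor, and 0 columns were left unused. Tissue and genotype are from the labels, whose extraction text speaks of cell lines. Symbols (37693 of 39179 genes), coordinates and exon lengths are from GENCODE M21 on GRCm38, another release than the one used for counting. Strand and multi-mapping settings of the counting are not given in the sources used here.

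The comparison between genotypes used edgeR 4.0.16 under R 4.3.3, with TMM factors, the default low-count filter and the quasi-likelihood F test on the 6 libraries, calling genes at an adjusted p under 0.05. Genotype was the only term. SE is the absolute log2 fold change over the square root of F. The biological coefficient of variation was 0.708. CPM are counts scaled to a common effective library size. Each tumor is labelled with its own mouse number. The p-values of the fit measure the spread between the 6 libraries, with No316 and No368 entered as 2. That pair lay within sampling noise for 87.2% of genes, so these p-values do not measure the spread between independent tumors alone. DESeq2 1.42.0 and limma-voom (limma 3.58.1) were alternatives. Fits were tested on simulated counts. Shares, ratios and summed levels were compared by exact two-sided permutation over 5 samples (scipy 1.17.1). Likeness to *Ppp2r5b* used log2 CPM with a prior count of 2. A pair of tumors was compared over genes with at least 20 summed counts against the 95% binomial range.

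The subunits and lists were chosen with earlier results of these data known. Genes named are the 10 subunits, the lowest and highest log2 fold change of each list, the 5 genes most like *Ppp2r5b*, *Cd44*, *Hprt*, *Tbp* and markers. *Foxo3*, *Fam122a*, the other inhibitors and the overlapping genes were named after their values were seen.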

Additional observations from a re-analysis of the deposited data

How the results depend on the processing

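The number of subunits with an adjusted p-value under 0.05 was 0 in all 18 alternatives, as was that of the wider lists. Over all genes it was 0 with every edgeR and limma-voom setting, 419 with DESeq2 defaults, 1195 without its Cook's distance filter and 146 with No316 and No368 summed in DESeq2, a setting added after the data were seen, as was the principal transcript length. *Ppp2r5b* kept its direction in all 18, from -1.40 to -0.87, with adjusted p-values from 0.176 to 0.818, and *Ppp2ca* (0.46 to 0.78) and *Ppp2r1b* (0.53 to 0.98) kept theirs. The number of subunits whose genotypes did not overlap was 0 with library size alone (12.15% of all genes) and 4 with DESeq2 size factors (19.06%). It was 2 without mitochondrial genes (17.96%) and 3 with *Hprt* and *Tbp* (16.47%). Leaving out one tumor, it was 4 without No244 (39.49%), 3 without No316 (20.85%), 4 without No368 (21.17%) and 3 without No279 (29.41%). It was 5 without No203 (37.91% of all genes) and 5 without No364 (28.74%). Library size without mitochondrial genes moved the median log2 fold change of all genes from 0.11 to -0.16, and *Hprt* and *Tbp* moved it to -0.05. Under the former, *Ppp2cb* was at -0.19 and *Ppp2r5e* at -0.0931, and *Ppp2cb* was at -0.0133 with library size alone and -0.0214 with *Hprt* and *Tbp*. Without one tumor, *Ppp2cb* ran from -0.0334 to 0.17, *Ppp2r1a* from -0.0424 to 0.50, *Ppp2r5e* from -0.0603 to 0.46, *Bod1* from -0.16 to 0.36 and *Ppp1cb* from -0.54 to 0.23. *Bod1* was at -0.0237 with DESeq2 size factors, -0.25 without mitochondrial genes, -0.26 with *Hprt* and *Tbp*, -0.0134 with DESeq2 under either use of that filter, -0.16 and -0.17 with the pair summed in edgeR and DESeq2, and -0.0266 with the hepatocyte score. *Ppp1cb* was at 0.006 with limma-voom, 0.17 and 0.16 with the pair summed in edgeR and DESeq2, and 0.23 with the hepatocyte score. The share of *Ppp2r5d* differed by 1.06 points with No316 and No368 as 2 samples, against -1.55, and ran from -3.10 to 6.29 without one tumor, and that of *Ppp2r5a* from -4.21 to 4.54. The cause of these changes was not tested. No paired analysis was possible because the mouse numbers differ between genotypes. The 3 tumors per genotype, with 2 independent *Cd44*+/+ samples, limit what can be called. In the fit of 6 libraries, the median standard error of the subunits was 0.37 on the log2 scale. With No316 and No368 summed, their standard errors in edgeR were larger, from 0.44 (*Ppp2cb*) to 0.65 (*Ppp2r1a*).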

Other observations

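*Hprt* and *Tbp*, the genes that the study used as references for its qRT-PCR in cells, were not equally even in the tumors. *Hprt* ran from 40.7 CPM in No244 to 106.9 CPM in No364, with the remaining tumors between 61.3 and 78.5 CPM. *Tbp* ran from 35.4 CPM in No279 to 49.5 CPM in No203. The genotypes overlapped for both, with log2 fold changes of 0.29 for *Hprt* and -0.01 for *Tbp* and adjusted p-values of 0.799 and 0.988 from edgeR.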
